A study of Mus musculus with 217 samples.

Results

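Chondrocytes of the mouse growth plate were divided by Sfrp5, a gene reported for the resting zone, and the profiles that held it were compared with those that did not. The mice were C57/BL, wild type and at postnatal day 7; growth plates of the tibia were microdissected, and 217 cells carry identical labels. Since no animal, litter or plate is named, the cells count as 1 sample and no test between the sets exists. Columns that correlated above r = 0.95 over 9739 genes were averaged as repeats, and 1 mixed column was dropped. The labels title each column as its own cell and do not state what the repeats are. Profiles with a value of at least 5 for Acan, the gene of the cartilage proteoglycan aggrecan, were kept as chondrocytes. The members were chosen by their measured Sfrp5 and Acan values. Values are on the deposited log2 scale, and a value of at least 1 counts as detected. Sfrp5 was detected in 66 of the chondrocyte profiles (37.5%, 95% exact Clopper-Pearson interval 30.3 to 45.1%), which are the Sfrp5-positive set, and the other 110 are the Sfrp5-negative set. Intervals cover counting error only. Each SD is a spread over profiles, which are cells and not replicates.

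Sfrp5 encodes a secreted frizzled-related protein, which binds WNT ligands outside the cell and limits their signalling. The resting zone at the top of the growth plate holds slowly dividing round chondrocytes that give rise to the columns of flat dividing cells. Below the columns, cells stop dividing, express the hedgehog ligand Ihh and then enlarge, and hypertrophic cells make collagen X, the product of Col10a1. Ucma, a small secreted cartilage protein that carries gamma-carboxyglutamate, is the other marker given for the resting zone. On the GRCm38 assembly, which is the mm10 build that the submitters' processing notes name, RefSeq places Sfrp5 on chromosome 19 from 42197971 to 42202252 and Ucma on chromosome 2 from 4976122 to 4985748.

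Sfrp5 chose the profiles, so its own values are a description. In the Sfrp5-positive set it ran from 1.12 through a median of 4.68 to 8.74, and 46 of the 66 profiles had at least 4. In the Sfrp5-negative set 4 of the 110 profiles lay between 0 and 1 and the rest were at exactly 0. The values just inside the threshold were 1.12, 1.55, 1.74 and 1.85, and those just outside were 0.82, 0.54, 0.37 and 0.11, so few profiles lay near it. Among the 23 sets of repeat columns, Sfrp5 was at least 1 in every column of 8 sets and below 1 in every column of 14. In the remaining set 1 column reached 1.10 and the others were at 0. Within the 8 positive sets the pooled SD between repeats was 0.39. The sets were found by their correlation over all genes, so close values within them were partly selected. The Acan minimum was also clear of the data, with 2.91 the highest value below it and 6.67 the lowest above it. None of the 11 profiles below the Acan minimum had Sfrp5 of at least 1.

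**Figure D1:**
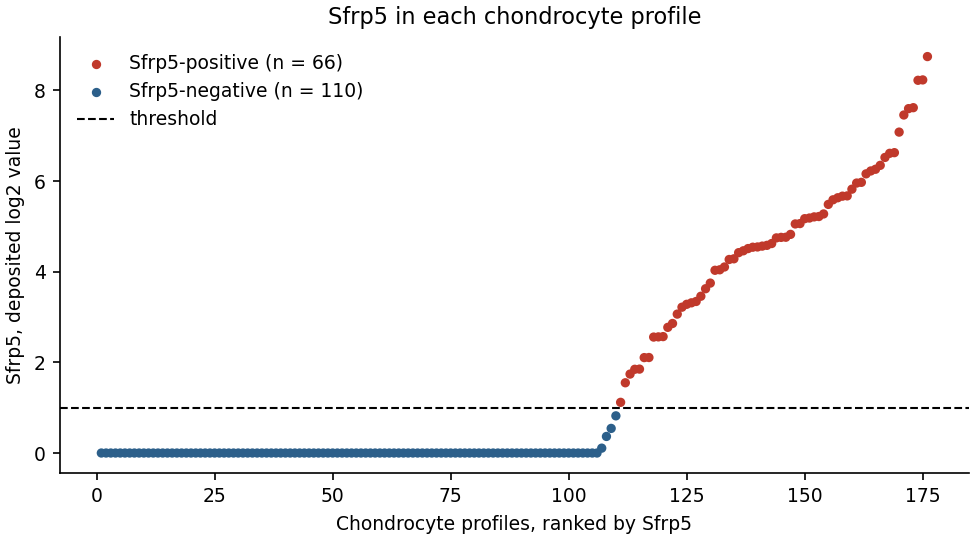
Sfrp5 in each chondrocyte profile, ranked along the x axis, on the deposited log2 scale, with the threshold of 1 dashed. The profiles at exactly 0 form the flat part, 4 lie between 0 and 1, and the 66 positive profiles climb from 1.12 to 8.74.

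Both sets held cartilage genes, and the number of genes detected overlapped widely between them. The 19 measured genes of cartilage matrix and identity, Acan left out, had a median detected share of 98.5% in the Sfrp5-positive set and 99.1% in the Sfrp5-negative set. The median number of genes detected was 3452.5 in Sfrp5-positive profiles (3373 ± 527, mean and SD) and 3463.5 in Sfrp5-negative ones (3420 ± 615). Acan averaged 9.11 ± 0.68 SD in the Sfrp5-positive and 9.15 ± 0.78 in the Sfrp5-negative set.

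Ucma was detected more often beside Sfrp5, at low levels. In the Sfrp5-positive set Ucma ran from 0 through a median of 2.42 to 5.88, and in the Sfrp5-negative set from 0 through 1.22 to 7.26. The ranges overlapped throughout, and the highest Ucma value belonged to a Sfrp5-negative profile. It was detected in 47 of 66 Sfrp5-positive profiles (71.2%, interval 58.7 to 81.7%) and in 58 of 110 Sfrp5-negative ones (52.7%, 42.98 to 62.3%), and these intervals overlapped. Means were 2.58 ± 1.93 SD and 1.89 ± 2.03, a difference of 0.69, which is 0.34 of the SD over all chondrocyte profiles. The SD of Ucma between repeat columns was 0.51. Of all chondrocyte profiles, 47 carried both genes, 19 Sfrp5 alone, 58 Ucma alone and 52 neither. The difference in Ucma was 0.82 among the profiles with Col10a1 of at least 1 and -0.28 among the 39 profiles with Col10a1 below 1, where 16 of 19 Sfrp5-positive and 16 of 20 Sfrp5-negative profiles held Ucma. The division by Col10a1 was chosen after seeing the data.

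The other reported resting genes did not move as a group. Of the 12 measured, besides Sfrp5, 7 were higher and 5 lower in the Sfrp5-positive set, with a median difference of 0.05, against -0.03 over all 9737 genes other than Sfrp5 and Acan. Only 7 of these 12 genes were detected in at least 20% of the chondrocyte profiles. None of the 12 was higher by at least 1, but few genes were: over all measured genes 0.514% were higher and 0.585% lower by at least 1. The 2 that were lower by at least 1 were Cd200 and Foxa2.

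Cd200, a membrane glycoprotein reported on skeletal stem cells, had the lowest difference of all genes detected in at least 20% of the profiles. It was detected in 24 of 66 Sfrp5-positive profiles (36.4%, 24.9 to 49.1%) and in 66 of 110 Sfrp5-negative ones (60%, 50.2 to 69.2%). Its median was 0 in the first set and 4.46 in the second, with highest values of 8.89 and 10.31, and the means differed by -2.0 (1.82 ± 2.72 SD against 3.82 ± 3.43). By Sfrp5 level, Cd200 was detected in 8 of the 20 profiles with 1 to 4, 14 of the 32 with 4 to 6 and 2 of the 14 with at least 6. Its share thus did not fall at every step. Foxa2, a forkhead transcription factor of the growth plate, was detected in 12 Sfrp5-positive and 42 Sfrp5-negative profiles, with a difference of -1.06. The Foxa2 difference was -1.20 among profiles with Col10a1 of at least 1 and 0.06 among those with Col10a1 below 1.

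The resting genes that were higher differed by less. After Ucma came Gdf10, a secreted factor of the BMP family, with 5.69 ± 2.60 SD against 5.01 ± 2.93 and detection in 58 of 66 and 89 of 110 profiles. Clu, which encodes the secreted chaperone clusterin, differed by 0.27, and Barx2, a homeobox factor, by 0.25 with detection in 7 and 4 profiles. Apoe, an apolipoprotein, differed by 0.14 and Gas1, a hedgehog co-receptor found in 2 profiles of each set, by 0.09. Efemp1, a fibulin of the matrix, differed by 0.02. Nt5e, the ectonucleotidase CD73, was detected in 58 and 97 profiles with a difference of -0.11, Wif1, a secreted WNT inhibitor, differed by -0.09, and Spon1, a matrix protein, by -0.39.

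Genes of the later zones were lower where Sfrp5 was present, most of all Col10a1. Of the 10 measured hypertrophic genes 9 were lower, with a median difference of -0.32, and of the 9 prehypertrophic genes 7 were lower, with a median of -0.28. Among all 9737 genes the median was -0.03, and of the 5378 detected in at least 20% of the chondrocyte profiles 2573 were higher. These values are also the background for the counts and medians of the lists below. In each of the 2 zone lists 7 genes were detected that widely. Col10a1 had a median of 6.73 and a highest value of 12.14 in the Sfrp5-positive set, and 8.40 and 14.62 in the Sfrp5-negative set, with 0 the lowest in both. The means differed by -1.79 (5.46 ± 4.19 SD against 7.25 ± 4.31), or -0.41 when divided by the SD over all chondrocyte profiles.

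The sets did not separate by zone. Col10a1 was detected in 47 of 66 Sfrp5-positive profiles (71.2%, 58.7 to 81.7%) and 90 of 110 Sfrp5-negative ones (81.8%, 73.3 to 88.5%), and 34 Sfrp5-positive profiles (51.5%) had a value of at least 6. Ihh was detected in 21 of 66 (31.8%, 20.9 to 44.4%) and 40 of 110 (36.4%, 27.4 to 46.1%). Ibsp, which encodes a bone sialoprotein of late cartilage and bone, was detected in 9 of 66 (13.6%, 6.43 to 24.3%) and 28 of 110 (25.5%, 17.6 to 34.6%), although the highest Ibsp value, 15.05, belonged to a Sfrp5-positive profile. Spp1, the gene of osteopontin, was detected in 12 (18.2%) and 31 (28.2%). Each of these pairs of intervals overlapped. Only 11 of the 66 Sfrp5-positive profiles (16.7%) and 11 of the 110 Sfrp5-negative ones (10%) held none of Col10a1, Ihh, Ibsp and Spp1, so the Sfrp5-positive set is not called resting zone here. Viewed from the other side, Sfrp5 was detected in 19 of 39 profiles with Col10a1 below 1 (48.7%, 32.4 to 65.2%), in 47 of the profiles with Col10a1 of at least 1 (34.3%, 26.4 to 42.9%) and in 9 of 37 with Ibsp (24.3%, 11.8 to 41.2%).

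**Figure D2:**
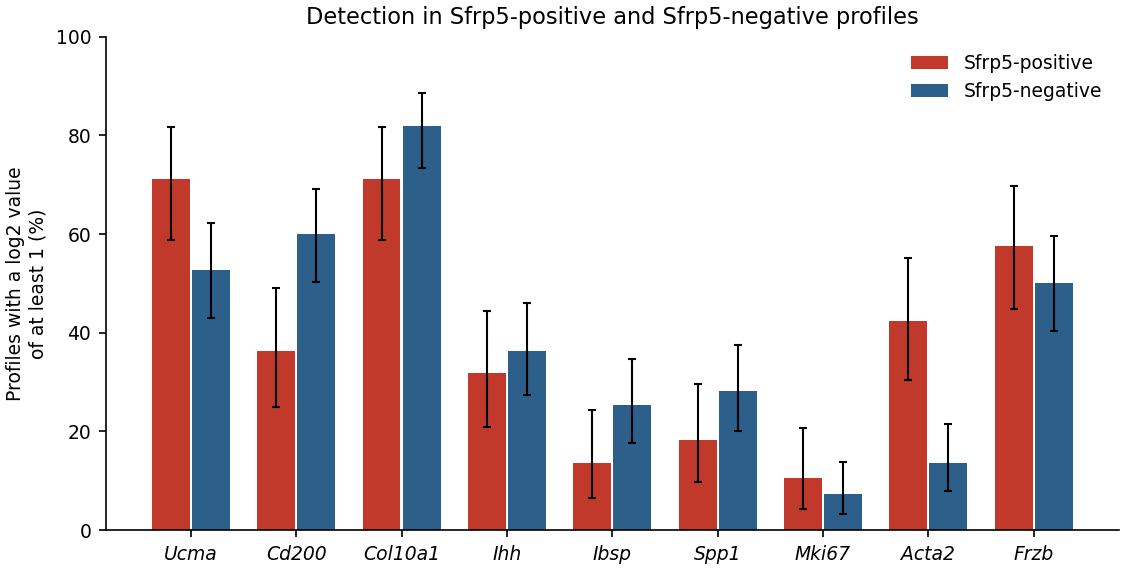
Share of profiles with a log2 value of at least 1 for 9 genes in Sfrp5-positive (red, n = 66) and Sfrp5-negative (blue, n = 110) profiles, with 95% exact intervals as bars. Acta2 (42.4% against 13.6%) and Cd200 (36.4% against 60%) have intervals that do not overlap, and both were chosen for their large differences.

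Other genes of the late programme were lower as well. Bmp6, a BMP ligand of prehypertrophic cells, had a median of 4.22 in the Sfrp5-positive and 5.72 in the Sfrp5-negative set and a difference of -1.19, which was 0.04 among profiles with Col10a1 below 1. Mef2c, a transcription factor that drives hypertrophy, differed by -0.71, and the collagenase gene Mmp13 by -0.65 with detection in 2 and 13 profiles. Dmp1, a matrix phosphoprotein, differed by -0.35 with detection in 2 and 10 profiles. Gja1, the gap junction gene connexin 43, was the exception among hypertrophic genes, higher by 0.91, and Runx2, a regulator of hypertrophy, was higher by 0.48 with detection in 10 and 8 profiles. Of the 12 measured osteoblast genes 10 were lower (median -0.38), among them Bglap2, an osteocalcin gene whose reads can be shared with its near-identical neighbour Bglap, at -1.01. Sp7, Runx2, Ibsp and Dmp1 are in this list and also in a zone list. Within the profiles with Col10a1 below 1, the medians of the prehypertrophic and hypertrophic lists were 0.18 and 0.01. Within those with Col10a1 of at least 1 they were -0.20 and -0.46.

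Level of Sfrp5 and level of the late genes were also set side by side. Mean Col10a1 was 7.25 ± 4.31 SD in the 110 profiles with Sfrp5 below 1, 6.72 ± 4.50 in the 20 with Sfrp5 of 1 to 4, 5.46 ± 4.01 in the 32 with 4 to 6 and 3.65 ± 3.72 in the 14 with at least 6. Bmp6 followed the same order, at 4.58, 4.17, 3.45 and 2.10. Neighbouring steps differed by less than 1 SD over profiles. The rank correlation of Col10a1 with Sfrp5 was -0.24 over all chondrocyte profiles and -0.29 within the 66 positive ones, as a description of cells that share 1 sample.

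Profiles with both resting markers had the least Col10a1. Its mean was 4.72 ± 3.86 SD in the 47 profiles with Sfrp5 and Ucma, 6.17 ± 4.44 in the 58 with Ucma alone, 7.28 ± 4.51 in the 19 with Sfrp5 alone and 8.46 ± 3.84 in the 52 with neither. Ibsp was detected in 8.51%, 20.7%, 26.3% and 30.8% of these classes, in the same order, and Cd200 in 29.8%, 50%, 52.6% and 71.2%.

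**Figure D3:**
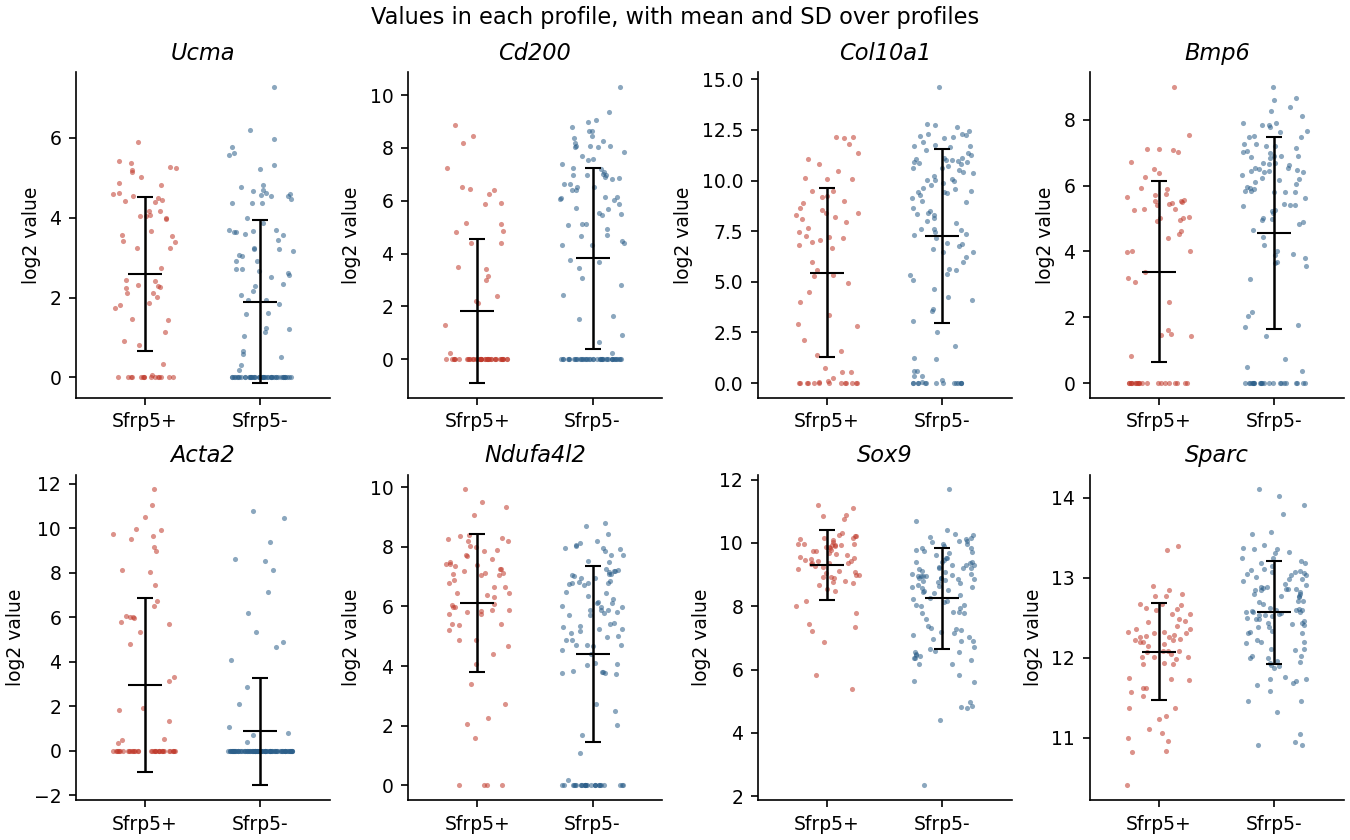
Log2 values of 8 genes in every Sfrp5-positive (red) and Sfrp5-negative (blue) profile, with the mean and SD over profiles in black. All 8 genes overlap between the sets, with Sparc and Sox9 detected in every profile and Acta2 and Cd200 at 0 in many.

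Columnar genes and genes of division had medians near 0 over all chondrocyte profiles. The 10 measured columnar genes had a median difference of 0.06, with 6 higher and 4 lower. They ranged from Comp, a matrix glycoprotein, at -0.57 to Prelp, a leucine-rich matrix protein, at 0.70, and Fgfr3, a receptor that restrains chondrocyte division, differed by 0.08. Mki67, a marker of cycling cells, was detected in 7 of 66 Sfrp5-positive profiles (10.6%, 4.37 to 20.6%) and 8 of 110 Sfrp5-negative ones (7.27%, 3.19 to 13.8%). Mki67, Top2a or Cdk1 was detected in 15 (22.7%, 13.3 to 34.7%) and 16 (14.5%, 8.55 to 22.5%). The 13 S phase and 12 G2 and mitosis genes had medians of -0.03 and -0.01, and none of them differed by 1. Only 5 and 1 of them were detected in at least 20% of the chondrocyte profiles. Genes at 0 in most profiles of both sets can hardly differ by 1, so these values say little about division. Neither list median kept its sign in every setting. Among profiles with Col10a1 below 1 (19 and 20) the medians were -0.57 and -0.50 and Mki67 differed by -0.75, and among those with Col10a1 of at least 1 the medians were 0.09 and 0.10 and Mki67 differed by 0.17.

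WNT pathway genes were examined because Sfrp5 acts on this pathway. In the list of secreted antagonists, 5 of the 7 measured genes were higher (median 0.30). Only 3 of the 7 were detected in at least 20% of the chondrocyte profiles. The list counts Cthrc1, a secreted collagen triple helix protein that acts with WNT receptors and is not an antagonist in the strict sense. Cthrc1 was its only member higher by at least 1, with a difference of 1.22 (4.33 ± 3.38 SD against 3.11 ± 3.47, detected in 45 and 54 profiles). This direction turned with Col10a1: the Cthrc1 difference was 1.88 among profiles with Col10a1 of at least 1 and -1.32 among those with Col10a1 below 1. Sfrp2 and Sfrp1, related to Sfrp5, differed by 0.36 and 0.34, Notum, an enzyme that inactivates WNT ligands, by 0.30, and Frzb, a frizzled-related antagonist, by 0.25 with detection in 57.6% and 50% of profiles. Sfrp4, of the same family, differed by -0.54 and Wif1 is given above. The median of this list did not keep its direction: it was -0.04 with Sfrp5 of at least 4 as the positive set, and -0.31 among profiles with Col10a1 below 1.

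Ligands and receptors of the pathway were mostly lower by small amounts. All 4 measured ligand and secretion genes were lower, namely Wnt4 (-0.36), Wnt10b (-0.28), the secretion factor Wls (-0.26) and Wnt2b (-0.01). Of the 12 genes in the receptor list, which also holds the ligand Rspo3 and the ubiquitin ligase Znrf3, 9 were lower. Their median was -0.18, against -0.03 over all genes, and it kept its sign in 14 of 16 settings. Only 5 of the 12 were detected in at least 20% of the chondrocyte profiles. Lgr4, a receptor for R-spondins, was higher by 0.98 (5.34 ± 1.89 SD against 4.36 ± 2.39). The 13 cytoplasmic and nuclear genes had a median of 0.00, from Pygo2, a cofactor of beta-catenin, at -0.55 to Gsk3b, a kinase that marks beta-catenin for degradation, at 0.42.

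Readout genes of the pathway were few. Axin2, a feedback target, was detected in 0 of 66 Sfrp5-positive (interval 0 to 5.44%) and 5 of 110 Sfrp5-negative profiles (4.55%, 1.49 to 10.3%). Ccnd1, the gene of cyclin D1, was higher by 0.82 (2.97 ± 2.30 SD against 2.15 ± 2.29), Tcf7, a pathway transcription factor, by 0.08 and Cd44, a hyaluronan receptor, by 0.01. Of 4 target genes 3 were thus higher, with a median of 0.04. Only 2 of the 4 were detected in at least 20% of the chondrocyte profiles, and the median kept its sign in 14 of 16 settings.

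Genes of the other growth plate pathways included both directions. Of the 9 hedgehog genes 5 were higher (median 0.00), with the receptor Ptch1 at 0.29 and Smo, which passes the signal on, at -0.28. Of the 18 BMP genes 13 were lower (median -0.31), among them the ligand Bmp2 (-0.63), the receptor Bmpr2 (-0.68), the mediator Smad1 (-0.57) and the response gene Id1 (-1.01, detected in 12 and 39 profiles), whereas Id2, of the same family as Id1, was higher by 1.11. The Id2 difference was -0.11 in the profiles with more detected genes. Bmp6 and Gdf10 are also in this list. The median of the BMP list was -0.08 among profiles with Col10a1 below 1 and -0.19 among the others. In the former Bmp2 differed by 0.45, Bmpr2 by -1.36 and Id1 by -0.85. Of the 8 FGF genes 5 were higher (median 0.10), with the feedback inhibitor Spry2 at 1.05 and Spry4, of the same family, at -0.63. The difference in Spry2 was -0.06 among profiles with Col10a1 below 1.

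**Figure D4:**
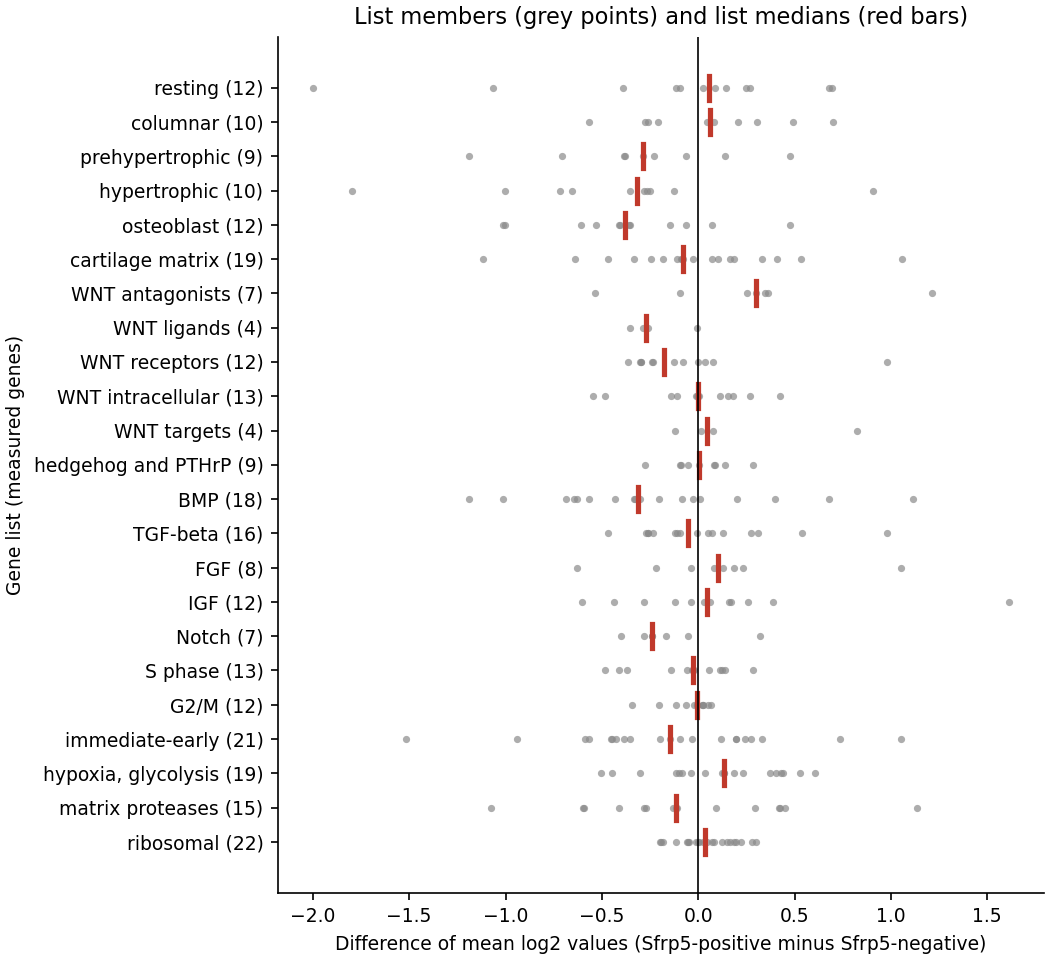
Difference of mean log2 values (Sfrp5-positive minus Sfrp5-negative) for each measured member of 23 gene lists (grey points), with the list median in red and the number of measured genes in brackets. Medians lie between -0.38 for osteoblast genes and 0.30 for WNT antagonists, while single members reach -2.0 and 1.61.

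Over all genes the contrast was shallow. Of 5378 genes detected in at least 20% of the chondrocyte profiles, 49 (0.911%) were higher and 56 (1.04%) lower by at least 1 in the Sfrp5-positive set. With the number of genes detected regressed out, the split was 57 higher against 41 lower. The median difference over these genes was -0.02, and 95% of them lay between -0.83 and 0.79. Among the genes past 1 the median SD over profiles was 2.79. The widest ratio of a difference to its SD was 0.74, for Rps25, a ribosomal protein gene whose reads can be shared with pseudogene copies, so no difference reached the SD of its gene over profiles. No test was possible, and how many genes would pass 1 without any link to Sfrp5 is not known.

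The gene with the highest difference was Acta2, which encodes the alpha actin of smooth muscle and contractile cells. It was detected in 28 of 66 Sfrp5-positive profiles (42.4%, 30.3 to 55.2%) and 15 of 110 Sfrp5-negative ones (13.6%, 7.84 to 21.5%). The median was 0 in both sets and the highest values were 11.75 and 10.79. The difference in means was 2.09 (2.97 ± 3.92 SD against 0.87 ± 2.42). The sets differed in how many profiles held the gene more than in its highest level. Acta2 was detected in 23 of the 47 profiles with both Sfrp5 and Ucma, 5 of the 19 with Sfrp5 alone, 6 of the 58 with Ucma alone and 9 of the 52 with neither. The difference was 2.29 with Col10a1 below 1 and 1.76 with Col10a1 of at least 1.

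Acta2 belongs to the list of muscle genes, of which 5 were measured and 3 were higher. Myl9, a myosin light chain, was detected in 12 Sfrp5-positive and 6 Sfrp5-negative profiles (difference 0.87). Tagln, Des and Tnnt3 differed by 0.01, -0.00 and -0.03, with Tnnt3, of skeletal muscle, in 2 and 6 profiles. The summed level of the list ran from 0 to 12.04 in the Sfrp5-positive and from 0 to 11.3 in the Sfrp5-negative set, with medians of 4.39 and 0. The part of other cells in this difference was not tested. Genes of endothelium and macrophages were at 0 in most profiles: the summed level was 0 in 56 of 66 and 100 of 110 profiles for the 2 endothelial genes, and in 40 and 77 for the 5 macrophage genes. Perichondrial and fibroblast genes had a median difference of -0.11 (5 of 7 lower), with Col3a1, a fibrillar collagen of connective tissue, highest at 0.53.

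The genes that followed were detected more widely than Acta2. Fstl1, a secreted glycoprotein detected in 50 of 66 and 52 of 110 profiles, had a median of 5.62 in the Sfrp5-positive and 0.27 in the Sfrp5-negative set and differed by 1.84. Ndufa4l2, a mitochondrial protein induced by low oxygen, had medians of 6.65 and 5.24 and differed by 1.73 (6.13 ± 2.31 SD against 4.40 ± 2.95). H19, an imprinted noncoding RNA of growing tissue, was detected in all 66 Sfrp5-positive profiles, where its lowest value was 2.85, and in 93.6% of the Sfrp5-negative ones, with a difference of 1.61. Both Ndufa4l2 and Cox4i2, an oxygen-regulated subunit of cytochrome c oxidase that was higher by 1.24, were above 0 in difference whether Col10a1 was below 1 (1.64 and 1.58) or not (1.76 and 1.18).

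Next in size were Hbegf, an EGF receptor ligand, and the transcription factor Sox11, with differences of 1.48 each. Mir22hg, the host transcript of a microRNA, was higher by 1.46, Rgs2, a brake on G protein signalling, by 1.40, and Pla2g7, a phospholipase found in 24 and 13 profiles, by 1.39. Arglu1 (1.30), the antioxidant gene Srxn1 (1.29), the cytokine gene Il17b (1.26), the transcript 5430417L22Rik (1.26, with no strand setting of the counting stated) and Flrt1 (1.25), a membrane adhesion protein, completed the 15 highest. Among other named genes, Inhba, a subunit of activin, differed by 0.98 and F3, the gene of tissue factor, by 0.45. Among profiles with Col10a1 below 1, Hbegf differed by 0.20, Fstl1 by 0.41 and Srxn1 by -0.07, so these differences lay mainly in the profiles with Col10a1.

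On the lower side, Cd200 and Col10a1 were followed by Gpr108, an orphan receptor detected in 19 of 66 and 57 of 110 profiles, at -1.60. Atf3, a stress-induced transcription factor, had medians of 3.37 and 6.02 and a difference of -1.51. Blvra, the gene of biliverdin reductase, differed by -1.42, Epha2, an ephrin receptor, by -1.33, Cep85l by -1.31, Rpp21, of ribonuclease P, by -1.30, and Tapt1 by -1.30. Mrps6, of the mitochondrial ribosome, and Tspan13, a tetraspanin, differed by -1.28 each. Hist1h1c, a linker histone, and Lmcd1, a LIM domain cofactor, differed by -1.27 each, and Frg1 and Rhbdl2, a rhomboid protease, by -1.24 each. Among profiles with Col10a1 below 1, Atf3, Hist1h1c and Lmcd1 were higher, by 0.19, 0.43 and 0.96, while Cd200 (-1.09) and Gpr108 (-1.45) were lower there too.

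**Figure D5:**
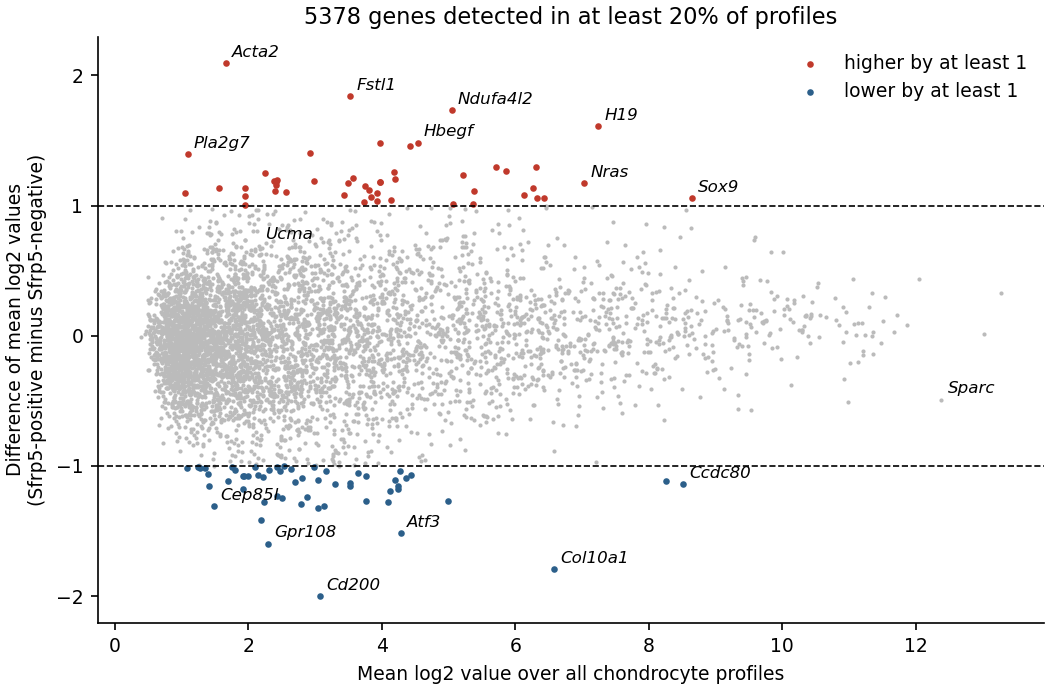
Difference of mean log2 values (y axis, Sfrp5-positive minus Sfrp5-negative) against the mean log2 value over all chondrocyte profiles (x axis) for 5378 genes, with dashed lines at 1 and -1. The 49 genes above (red) and 56 below (blue) lie mainly at low and middle levels, and Acta2 and Cd200 are the extremes.

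Likeness to Sfrp5 was measured by Spearman's rho over all chondrocyte profiles (66 and 110), which share 1 sample, and it was weak for every gene. Most of these profiles were tied at a Sfrp5 value of exactly 0, so this rho largely restates the division by Sfrp5. The highest rho values belonged to Nras, a small GTPase (0.36), Acta2 (0.35), Pla2g7 (0.33), Rps25 (0.33), Sox9 (0.32), Hnrnpu, an RNA-binding nuclear protein (0.31), Ndufa4l2 (0.31) and Arglu1 (0.30). Within the 66 positive profiles the rho of these genes ran from -0.01 for Sox9 and 0.07 for Acta2 to 0.25 for Pla2g7. Sox9, a transcription factor needed to form cartilage, was present in all profiles, with a median of 9.49 (5.39 to 11.21) in the Sfrp5-positive set and 8.65 (2.34 to 11.69) in the Sfrp5-negative set. Its means were 9.30 ± 1.10 SD and 8.25 ± 1.59, a difference of 1.06, and its rho with Sfrp5 within the positive set was -0.01. Nras had medians of 7.95 and 6.86 and a difference of 1.17.

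The lowest rho values belonged to Sparc (-0.38), Ccdc80 (-0.31), Cd200 (-0.29) and Ppib, an endoplasmic reticulum isomerase that helps fold collagen (-0.28). Within the positive set they were -0.17, -0.16, -0.08 and -0.04, in the same order. Sparc, which encodes the matrix protein osteonectin, varied little between profiles: its median was 12.20 (10.41 to 13.39) in the Sfrp5-positive and 12.60 (10.90 to 14.11) in the Sfrp5-negative set. Its means, 12.08 ± 0.60 SD and 12.57 ± 0.65, differed by -0.49, or -0.73 when divided by the SD over all chondrocyte profiles. The difference was -0.45 with Col10a1 below 1 and -0.42 with Col10a1 of at least 1. Ccdc80, a secreted matrix protein, had medians of 8.57 and 9.17 and a difference of -1.14.

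The cartilage genes themselves pointed both ways. Of the 19 measured, 8 were higher and 11 lower (median -0.08). Beside Sox9, Scrg1 (0.53), the small proteoglycan gene Epyc (0.41) and Lect1, the gene of chondromodulin (0.33), were higher. Chad, the cell-binding matrix protein chondroadherin, differed by -1.12, Cspg4, a membrane proteoglycan, by -0.64 and the proteoglycan gene Bgn by -0.47. Among the fibril and link protein genes, Col11a1, Col11a2 and Hapln1 differed by 0.10, 0.19 and 0.16, and the rarely detected Col2a1 by 0.07.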

How the data were processed

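Poly(A) RNA of each cell was amplified with a SMARTer kit and sequenced from Nextera XT libraries, per the labels' protocols. TopHat and mm10 are named in the submitters' processing notes; the quantifier, strand setting and abundance unit are not stated there. The authors deposited log2 values from 0 to 15.14, with 62.3% at exactly 0. Base 2 and a pseudocount of 1 were inferred from the back-transformed totals, which lay between 394406 and 616257 and show that values were scaled. Read depth is therefore unknown, and an exact 0 can be a failed estimate.

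Differences are Sfrp5-positive minus Sfrp5-negative means. No p-value was computed and no doublet caller was run. The members and lists were chosen with earlier results of these data known. Named genes are the 15 highest and 15 lowest differences among genes detected in at least 20% of profiles, the 8 highest and 4 lowest rho values, fixed zone genes, resting and WNT list members, and the extremes of other lists; further list examples were chosen after their values were seen. Alternatives changed thresholds, repeats, the mixed column, scaling, pseudocount, filters and genes detected. Steps were checked on simulated data with NumPy 2.4.6 and pandas 2.3.3 under Python 3.11.15; intervals used SciPy 1.17.1. Gene positions are RefSeq's. Pthlh and Grem1 were not analysed here.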

Additional observations from a re-analysis of the deposited data

How the results depend on the processing

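No paired analysis was possible because the cells form 1 sample of 1 group. Of 45 named genes with a difference of at least 1, 35 kept their sign in every setting tried. Id2 stood at -0.107 in the profiles with more detected genes. The remaining 9 changed sign only among the 39 profiles with Col10a1 below 1, a division chosen after seeing the data: Cthrc1 stood at -1.32, Foxa2 at 0.062, Bmp6 at 0.036, Srxn1 at -0.074, Col10a1 at 0.017, Atf3 at 0.19, Hist1h1c at 0.43, Lmcd1 at 0.96 and Spry2 at -0.061. That division removes nearly all Col10a1 from both sets; the cause of the other changes was not tested. In the same profiles the Ucma difference was -0.28 and the medians of the prehypertrophic and WNT antagonist lists were 0.18 and -0.31. The latter was also -0.043 with Sfrp5 of at least 4, -0.20 in the profiles with more detected genes, -0.019 for both Sfrp5 and Ucma against neither, 0.093 with Col10a1 of at least 1 and 0.56 with a pseudocount of 0.1, where Ucma differed by 1.30. With a threshold of 4, 26.1% of profiles were Sfrp5-positive. Genes higher and lower by at least 1 were 0.911% and 1.04% of those tested as reported. They were 4.20% and 5.34% (226 and 287 genes) with a pseudocount of 0.1. They were 2.07% and 4.22% in the profiles with more detected genes (33 against 55), 3.56% and 2.66% in those with fewer (33 against 55), and 4.05% and 3.92% for both markers against neither (47 against 52). They were 9.88% and 7.86% (485 and 386 genes) with Col10a1 below 1 and 1.48% and 1.63% (82 and 90) with Col10a1 of at least 1. Among genes detected in at least 50% of profiles they were 1.38% and 1.2% (38 and 33), and with no such filter 0.514% and 0.585%, since the number of genes tested changed. Without the Acan minimum 1.77% (95) were higher and 43 genes lower. With Sfrp5 of at least 4, 58 and 62 genes passed, of which 27 and 29 were among the reported 49 and 56. The split was 57 higher against 41 lower with genes detected regressed out, 55 against 44 with the mixed column kept, and 50 against 39 with any Sfrp5 above 0. These causes were not tested. Read depth is unknown, so values at 0 cannot be told from missed transcripts.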

Other observations

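Energy and stress genes were also compared. Of 19 measured hypoxia and glycolysis genes 12 were higher in Sfrp5-positive profiles (median 0.13), led by the glycolytic enzymes Gpi1 (0.61), Pgam1 (0.53) and Pgk1 (0.44), while Adm, a peptide hormone gene induced by low oxygen, was at -0.51 and Epas1, a hypoxia-inducible factor, at -0.45. The median was 0.58 among profiles with Col10a1 below 1 and -0.07 among the others. Of 21 genes of the immediate-early and heat shock responses, often induced when tissue is dissociated, 13 were lower (median -0.14), with Atf3 and Zfp36 (-0.94), an RNA-destabilizing factor, lowest and Ier3 (1.05) and Hsph1 (0.74), a heat shock protein, highest. Fos, an immediate-early transcription factor, differed by -0.39 and was detected in 56 of 66 and 94 of 110 profiles.

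Matrix proteases and their inhibitors ranged from Adamts1, a secreted protease, at -1.08 to Timp3, an inhibitor of such proteases, at 1.14 (6 of 15 higher, median -0.11). Mmp23 was detected in 1 Sfrp5-positive and 19 Sfrp5-negative profiles. The 16 TGF-beta, 12 IGF and 7 Notch pathway genes had medians of -0.05, 0.05 and -0.24, with 7, 7 and 1 of them higher. Only 7, 5 and 2 of them were detected in at least 20% of the chondrocyte profiles. The Notch median was 0 among profiles with Col10a1 below 1 and -0.26 among the others. In the IGF list Irs1, an adaptor of the receptor, was lowest at -0.61. The 22 ribosomal protein genes had a median of 0.03 and lay between -0.20 and 0.30. The 3 articular and 5 marrow stromal genes had medians of 0.01 and -0.12, the 2 osteoclast genes -0.34, and no red blood cell gene was analysed here.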
